A study of Danio rerio with 6 samples.

Results

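The genes described here code for the subunits of the receptors through which GABA, glycine, glutamate and acetylcholine act on cells. They were chosen by gene symbol alone: every symbol in the deposited feature list beginning gabr, glra, glrb, gria, grik, grid, grin1 to grin3, grm or chrn was a member, which gave 91 of 25109 listed genes. By family these were 12 NMDA receptor subunits, 8 AMPA receptor subunits, 4 kainate receptor subunits, 3 delta receptor subunits, 12 metabotropic glutamate receptors, 16 GABA-A receptor subunits, 5 rho subunits of GABA-A receptors, 7 glycine receptor subunits, 16 neuronal nicotinic subunits and 6 muscle nicotinic subunits. The other 2 symbols code for proteins that bind delta receptors and are not receptor subunits.

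Ionotropic receptors are assembled from several subunits around a pore, and the subunit mix sets which transmitter opens them, how fast they close and which ions pass, while metabotropic receptors signal through G proteins. In the vertebrate retina photoreceptors release glutamate in darkness. OFF bipolar cells respond to it through AMPA and kainate receptors, ON bipolar cells through the metabotropic receptor mGluR6, and amacrine and horizontal cells return GABA and glycine onto the cells around them.

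The study used 48 hpf zebrafish embryos of genotype NRE-eGFP/HS5-mCherry, in which the human PAX6 enhancers HS5 and NRE each drive a reporter from a minimal promoter. The embryos of every library had been treated with phenylthiourea (PTU) from the first day of development to prevent pigmentation. No library was without PTU, so its effect was not tested. Eyes of 100 to 150 embryos were pooled for a sample. FACS then enriched either mCherry-positive or eGFP-positive cells, giving 3 mCherry-enriched and 3 eGFP-enriched libraries. These went into droplet single-cell RNA sequencing with counting of unique molecular identifiers (UMIs) at transcript 3′ ends. The first mCherry-enriched sample was sorted as cells positive for both reporters, and the later ones took every mCherry-positive cell, so each mCherry-enriched library can hold cells with both. None of the 6 libraries is an unsorted eye, and a kept cell cannot be taken as one with an active enhancer, since the barcodes also held 113 red blood cell-like, 187 mesenchyme-like and 91 pigment cell-like cells.

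In all, 5606 barcodes had at least 1000 genes and at most 10% mitochondrial UMIs, 376, 218 and 597 in mCherry-enriched replicates 1, 2 and 3 and 2027, 85 and 2303 in eGFP-enriched replicates 1, 2 and 3. Marker genes, none of them a member, assigned 3826 of these to 12 retinal types and 604 to other tissues, and 1176 stayed without a type, 742 of them because a second type scored too close. The types are rebuilt from markers and are named "X-like", and a difference from the study's own clusters can come from that. Genes kept out of the gates were mostly highest in the type they are known from: gng3 and pou4f3 in RGC-like cells (699 and 63.7 CPM, a gene's UMIs scaled to the summed UMIs of the same cells), gad2 in amacrine-like cells (135 CPM), crx in ON bipolar-like cells (2362 CPM) and onecut1 in horizontal-like cells (289 CPM), while elavl3 was highest in early RGC-like cells, just above RGC-like cells. The median retinal cell held between 3835 and 12053.5 UMIs by library. No doublet caller was run, and 4 barcode sequences occurred in more than 1 library, 1 of them among retinal cells. Replicates 2 of both sorts held only 93 and 53 retinal cells, so most types could be tested only in 3 or 4 libraries, those with at least 10 cells of the type.

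Receptor subunit transcripts were scarce at this stage. Members took 12705 of the UMIs of retinal cells, 0.0263% of the total, and 57.2% of retinal cells held at least 1. Of the 91 members 85 were detected in retinal cells, 31 of them with more than 100 UMIs and 32 with 1 to 20. The 6 at 0 were grin2ca, chrnb1l, chrng, chrna4b, chrna7 and chrnb4, and at this depth a count of 0 limits their level without showing absence. NMDA subunits held 3412 UMIs, most of them from grin2ab (1367 UMIs) and grin1a (1356 UMIs), GABA-A subunits 2665, AMPA subunits 1702, glycine subunits 1435, neuronal nicotinic subunits 1302, metabotropic glutamate receptors 939, rho subunits 675, kainate subunits 322, delta subunits 182 and muscle nicotinic subunits 26. These sums are not scaled for how readily each 3′ end is counted, so they describe where the information lies and do not rank receptors by abundance.

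Summed over all members, the level differed widely between types. It was 747 ± 212 CPM in RGC-like cells (SD, n = 6 libraries), 527 ± 137 CPM in OFF bipolar-like cells (n = 4), 406 ± 259 CPM in cholinergic amacrine-like cells (n = 3) and 330 ± 79.8 CPM in ON bipolar-like cells (n = 4). It was 271 ± 62.2 CPM in other amacrine-like cells (n = 4), 241 ± 61.9 CPM in bipolar-like cells assigned to neither class (n = 4), 217 ± 95.4 CPM in horizontal-like cells (n = 3) and 157 ± 34.2 CPM in Müller glia-like cells (n = 4). At the low end, early RGC-like cells had 114 ± 56.1 CPM, stem cell-like cells 70.1 ± 34.6 CPM, photoreceptor-like (PR-like) cells 56.4 ± 55.0 CPM and progenitor-like cells 52.5 ± 34.0 CPM (n = 4 each). The RGC-like libraries, at 608 to 1170 CPM, overlapped with those of OFF bipolar-like (up to 647 CPM) and cholinergic amacrine-like cells (up to 693 CPM) and with no other type, while neighbours in the middle and low parts of this order overlapped with one another.

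**Figure D1:**
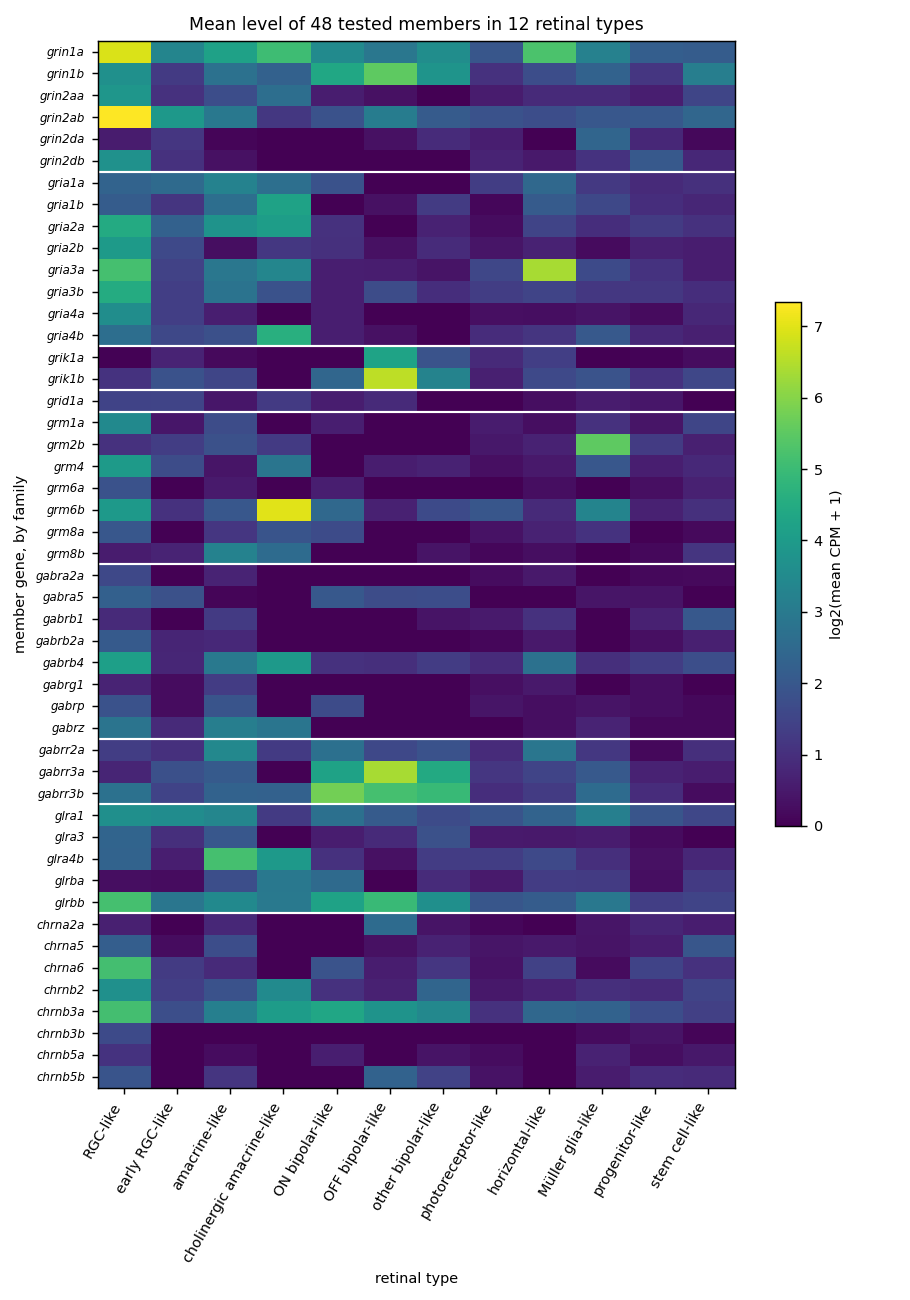
Level of 48 of the 53 members tested in at least 1 type (rows, by receptor family) in 12 marker-gated retinal types (columns), as log2 of the mean CPM over libraries plus 1. The RGC-like column is bright through most families. The OFF bipolar-like column is brightest in grik1b, gabrr3a, grin1b, gabrr3b and glrbb. The ON bipolar-like column is brightest in gabrr3b, followed by grin1b, chrnb3a, glrbb and gabrr3a. The PR-like, progenitor-like and stem cell-like columns are dark, that is low, nearly throughout.

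Each type was compared with the other retinal cells of the same libraries by edgeR's quasi-likelihood test on summed UMIs, with p-values adjusted over all genes tested (Benjamini-Hochberg), so the comparisons share cells. In RGC-like cells 28 of 38 tested members were higher, where 16.0% of all genes were, and 3 were lower, where 15.8% were. The median log2 fold change was 1.92 over the tested members and -0.06 over all genes. Of the 28 higher members, 8 were higher in every one of the 6 libraries. Without any one library the number of higher members lay between 19 and 29. Direct comparison with amacrine-like cells, cholinergic ones left out, gave 20 of 44 members higher in RGC-like cells, against 11.3% of all genes, and 3 lower, against 5.57%. In early RGC-like cells, a group defined by genes such as atoh7 and ebf2, 0 of 46 members were higher (background 2.22%; DESeq2 also found 0, and 15 members had an unadjusted p of at most 0.05 in either direction) and 4 were lower (background 3.4%), namely glra4b, gria3a, grin1a and grin1b. Those 4 calls were all lost without eGFP-enriched replicate 3.

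OFF bipolar-like cells had 10 of 46 members higher (background 5.23%) and 10 lower (background 10.9%), and ON bipolar-like cells 5 of 42 higher (background 7.91%) and 8 lower (background 16.5%). The bipolar-like cells of neither class had 3 of 43 higher (background 3.53%) and 6 lower (background 8.08%). Among amacrine-like cells other than cholinergic ones 6 of 52 members were higher (background 2.79%) and 3 lower (background 3.64%), and among cholinergic amacrine-like cells 3 of 41 were higher (background 2.60%) and 1 lower (background 9.38%). Horizontal-like cells had 1 of 46 higher (background 2.25%) and 1 lower (background 1.73%), and Müller glia-like cells 1 of 49 higher (background 6.0%) and 6 lower (background 5.14%). The share of tested members that were higher was 21.7% in OFF bipolar-like and 11.5% in amacrine-like cells, above the share of all genes. In ON bipolar-like cells it was 11.9%, not far from the 7.91% of all genes. It was 2.17% in horizontal-like and 2.04% in Müller glia-like cells, near or below the share of all genes. These smaller counts rest on few libraries. Without mCherry-enriched replicate 3 the amacrine-like cells had 0 members higher, and 2 without eGFP-enriched replicate 1. Without eGFP-enriched replicate 3 the cholinergic cells had 1 and the ON bipolar-like cells 3.

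Calls in the other direction filled the dividing and photoreceptor populations. In progenitor-like cells 30 of 53 members were lower (background 17.3%) and 0 higher (background 12.1%; 0 by DESeq2), in stem cell-like cells 24 of 50 were lower (background 19.7%) and 1 higher (background 19.3%), and in PR-like cells 18 of 38 were lower (background 12.0%) and 0 higher (background 6.76%; 0 by DESeq2). At an unadjusted p of at most 0.05 there were 38 members in progenitor-like and 23 in PR-like cells in either direction. The PR-like count fell to 5 without eGFP-enriched replicate 3, to 10 without mCherry-enriched replicate 3 and to 11 without mCherry-enriched replicate 2. The number of lower members was likewise 1 in ON bipolar-like and 2 in OFF bipolar-like cells without eGFP-enriched replicate 3, 4 in OFF bipolar-like cells without eGFP-enriched replicate 1, and 5 in ON bipolar-like cells without mCherry-enriched replicate 1 or 3. In unclassified bipolar-like cells it was 1 without either eGFP-enriched library and 3 without mCherry-enriched replicate 3, and in Müller glia-like cells 3 without replicate 3 of either sort. The 3 lower calls of amacrine-like cells were lost without mCherry-enriched replicate 3, and the single ones of horizontal-like and cholinergic cells without eGFP-enriched replicate 3. Members that are lower in one type are partly the ones concentrated in another, so these counts follow from where the high levels lie as well as from the type named.

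Across the 12 types 41 of the 53 tested members were higher in at least 1, 30 of them in exactly 1 and 11 in 2 or more. By family these were 5 of 6 tested NMDA subunits, 8 of 8 AMPA subunits, 2 of 2 kainate subunits, 1 of 2 delta subunits, 5 of 7 metabotropic glutamate receptors, 7 of 11 GABA-A subunits, 3 of 3 rho subunits, 4 of 5 glycine subunits and 6 of 8 neuronal nicotinic subunits. The other 38 members never reached the count needed for a test. The share of all genes higher in at least 1 type was not counted, while by type it ran from 2.22 to 19.3%. The counts of members and families higher in at least 1 type therefore do not set receptor genes apart from other genes.

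NMDA receptors pair the obligatory subunit encoded by grin1 genes with a grin2 subunit, and both were concentrated in RGC-like cells. The grin2 gene grin2ab ranged from 103 to 258 CPM over the 6 libraries of RGC-like cells, with a median of 145, against 0 to 10.9 CPM with a median of 1.44 in the other retinal cells (log2 fold change 5.10, SE 0.53, adjusted p = 3.9e-06). Its partner grin1a ranged from 87.9 to 188 CPM in RGC-like cells, with a median of 112, against 0 to 15.9 CPM with a median of 9.66 in the other cells (log2 fold change 3.64, SE 0.36, adjusted p = 2.2e-06). The groups did not overlap for either gene in any library. With every cell reduced to 2000 UMIs, grin2ab was found in 20.9% of RGC-like cells (95% exact binomial interval 17.5 to 24.6%), 3.47% of early RGC-like cells (1.28 to 7.40%), 0.903% of other amacrine-like cells and 0% of non-retinal cells. The non-retinal cells that serve as background are 421 mesenchyme-, surface epithelium-, iridophore-, cartilage-, leukocyte- and pigment cell-like cells, 417 of them deep enough for the reduction. Lens- and red blood cell-like cells are not among them. Before this reduction the shares were 39.7%, 8.57%, 3.39% and 0.950%.

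All 5 NMDA subunits tested in RGC-like cells were higher there. The paralogue grin2aa had 1.68 to 27.7 CPM in RGC-like cells, against 0 to 2.51 CPM in the others (log2 fold change 2.93, SE 0.53, adjusted p = 0.00068), with 1 overlapping library. The others were grin2db (log2 fold change 2.07) and grin1b (1.27). grin1b differed from its paralogue in that OFF bipolar-like cells also had more of it: 27.4, 79.9, 24.7 and 47.1 CPM in mCherry-enriched replicates 1 and 3 and eGFP-enriched replicates 1 and 3, against 7.57, 6.80, 7.01 and 6.31 CPM in the other retinal cells (log2 fold change 2.29, SE 0.37, adjusted p = 2.8e-08). In ON bipolar-like cells grin1b was higher by a log2 fold change of 1.25 (adjusted p = 0.020), a call lost without eGFP-enriched replicate 3 (adjusted p = 0.49). In the same OFF bipolar-like cells grin1a was lower (log2 fold change -2.24, adjusted p = 0.00011).

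The low levels of grin2ab outside RGC-like cells followed the library. In eGFP-enriched replicate 1 the amacrine-like, ON bipolar-like, Müller glia-like and stem cell-like cells had 10.8, 8.57, 10.5 and 12.5 CPM, against 3.63, 1.97, 0 and 1.00 CPM in eGFP-enriched replicate 3. Barcodes of at most 100 UMIs, which hold mostly RNA free in the droplets, had 2.34 to 13.6 CPM of grin2ab and 3.27 to 11.8 CPM of grin1a by library, but their grin2ab was lower in eGFP-enriched replicate 1 (5.83 CPM) than in replicate 3 (13.6 CPM). The part of free RNA in these low levels was not tested.

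AMPA receptors carry fast excitation, and the subunit encoded by gria2 genes limits their calcium entry. In RGC-like cells 7 of the 8 subunits were higher. gria3b had 12.6 to 29.6 CPM in RGC-like cells (median 21.1), against 0 to 3.11 CPM (median 1.87) in the others, without overlap (log2 fold change 3.06, SE 0.34, adjusted p = 7.3e-06). gria2a had 10.3 to 29.3 CPM in RGC-like cells, against 0 to 3.84 CPM in the others, again without overlap (log2 fold change 2.33, SE 0.31, adjusted p = 3.7e-05). gria2b and gria4a showed larger ratios (log2 fold changes 4.40, SE 0.49, and 4.02, SE 0.54) from lower levels, and neither was counted in the 10 RGC-like cells of eGFP-enriched replicate 2, where 1 UMI was worth 27.7 CPM. gria1a, the subunit that did not pass in RGC-like cells (adjusted p = 0.070), was higher in amacrine-like cells.

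**Figure D2:**
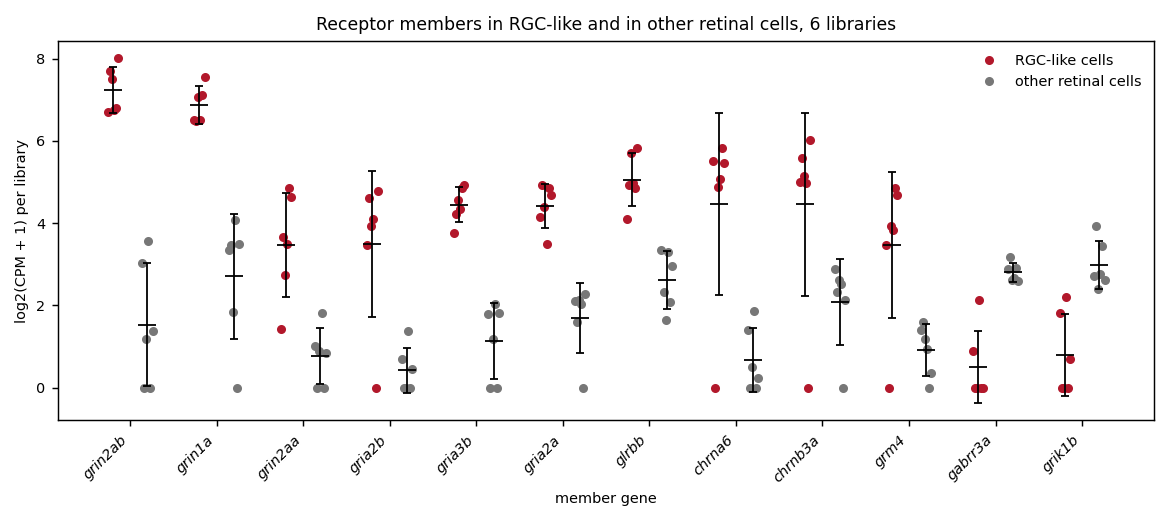
CPM of 12 members in RGC-like cells (left of each pair) and in the other retinal cells of the same libraries (right), on a log2(CPM + 1) axis. Points are the 6 libraries and bars the mean ± SD of the plotted values: grin2ab and grin1a separate without overlap, chrna6 drops to 0 in 1 library, and gabrr3a and grik1b run the other way.

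In amacrine-like cells gria2a and gria1a were higher and gria2b lower. gria2a had 12.3, 17.8, 6.06 and 14.0 CPM in mCherry-enriched replicates 1 and 3 and eGFP-enriched replicates 1 and 3, against 4.96, 3.79, 3.93 and 5.06 CPM in the other retinal cells (log2 fold change 1.24, SE 0.29, adjusted p = 0.046), a call lost when any 1 of the 4 libraries was left out. gria1a had 2.46, 2.97, 12.1 and 16.6 CPM in amacrine-like cells of these libraries, against 1.33, 1.26, 4.70 and 2.3 CPM in the others (log2 fold change 1.89, adjusted p = 0.035). It was higher in each library, but the 2 mCherry-enriched amacrine values lay below the 4.70 CPM of the other cells of eGFP-enriched replicate 1, and leaving out eGFP-enriched replicate 1 or mCherry-enriched replicate 3 ended the call, at adjusted p-values of 0.091 and 0.13. gria2b had 0, 0, 0.79 and 0 CPM in amacrine-like cells of these libraries, 3 UMIs in all, against 2.86, 2.11, 4.52 and 4.23 CPM in the others, without overlap (log2 fold change -3.21, SE 0.70, adjusted p = 0.039). Leaving out mCherry-enriched replicate 1, eGFP-enriched replicate 1 or mCherry-enriched replicate 3 ended this call, at adjusted p-values of 0.061, 0.098 and 0.14.

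The horizontal-like cells, which receive glutamate from photoreceptors, were higher in a single AMPA subunit. gria3a had 45.1, 34.9 and 167 CPM in horizontal-like cells of mCherry-enriched replicate 3 and eGFP-enriched replicates 1 and 3, against 4.58, 4.81 and 4.91 CPM in the other retinal cells (log2 fold change 3.91, SE 0.38, adjusted p = 1.3e-21). Every horizontal-like value was above those of the pooled other cells, and eGFP-enriched replicate 3 was several times above the other libraries. RGC-like cells came next and overlapped with them, at 13.2 to 111 CPM (median 21.6; log2 fold change against their own other cells 1.60), the 111 CPM being in the 10 cells of eGFP-enriched replicate 2. At 2000 UMIs a cell gria3a was found in 18.8% of horizontal-like cells (12.9 to 26.0%), 3.90% of cholinergic amacrine-like cells, 2.45% of RGC-like cells and 0% of non-retinal cells (57.3%, 11.7%, 14.5% and 0.238% before thinning). Its paralogue gria3b did not pass the test in horizontal-like cells. In the cholinergic amacrine-like cells gria4b had 14.7, 19.5 and 36.9 CPM (1, 5 and 9 UMIs), against 0.757, 3.07 and 1.99 CPM in the other retinal cells (log2 fold change 3.26, SE 0.75, adjusted p = 0.00027). It was also above the other amacrine-like cells (log2 fold change 2.65, SE 0.76, adjusted p = 0.012). The first call was lost without eGFP-enriched replicate 3, at an adjusted p of 0.35. The second was lost without eGFP-enriched replicate 1 and without mCherry-enriched replicate 3, at adjusted p-values of 0.13 and 0.066. gria1b was higher as well (log2 fold change 2.84), with 0, 11.7 and 41.0 CPM in the 3 libraries, against 1.89, 3.22 and 1.91 CPM in the other retinal cells.

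Kainate receptor subunits of the GluK1 kind carry the photoreceptor signal in OFF bipolar cells of several mammals, and both zebrafish copies, grik1a and grik1b, were concentrated in OFF bipolar-like cells. grik1b had 91.4, 128, 51.4 and 115 CPM in OFF bipolar-like cells of mCherry-enriched replicates 1 and 3 and eGFP-enriched replicates 1 and 3, against 3.36, 0.755, 3.56 and 0.809 CPM in the other retinal cells (log2 fold change 5.08, SE 0.35, adjusted p = 8e-44). grik1a had 18.3, 16.0, 7.90 and 30.6 CPM in OFF bipolar-like cells, against 0.168, 0, 0.689 and 0.647 CPM in the others (log2 fold change 4.67, SE 0.52, adjusted p = 1.7e-16). For both genes the lowest OFF value lay above the highest value of the other cells. Of the 8 AMPA subunits tested in OFF bipolar-like cells, 0 were higher (background 5.23%) and 3 lower (background 10.9%), namely gria2a, gria1a and gria3a. gria1a, gria2a and gria4a had 0 UMIs there, at a median depth of 4110.5 UMIs a cell. The gria2a and gria1a calls were lost without eGFP-enriched replicate 1.

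The same genes separated OFF from ON bipolar-like cells. Of 12 members tested between these classes 0 were higher in ON cells (background 2.18%; 0 by DESeq2, and 7 members in either direction had an unadjusted p of at most 0.05) and 4 were lower (background 1.87%). grik1b had 0, 8.88, 6.43 and 1.97 CPM in ON bipolar-like cells, against 91.4, 128, 51.4 and 115 CPM in OFF bipolar-like cells (log2 fold change -4.37, SE 0.49, adjusted p = 9.6e-17). grik1a had 0 UMIs in ON bipolar-like cells, against 24 UMIs in OFF bipolar-like cells of the 4 libraries (adjusted p = 0.00055). Against a floor of 3 UMIs over the ON cells, the level of grik1a in OFF cells was at least 6.24-fold higher.

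Shares of cells at equal depth gave the same order. At 2000 UMIs a cell grik1b was found in 1.05% of ON bipolar-like cells (0.216 to 3.02%) and 18.5% of OFF bipolar-like cells (14.1 to 23.5%), with 2.27% of unclassified bipolar-like and 0.240% of non-retinal cells (1.38%, 33.7%, 7.87% and 0.475% before thinning). grik1a was found in 0% of ON (up to 1.28%) and 4.27% of OFF bipolar-like cells (2.23 to 7.34%), and in 0.48% of non-retinal cells (0%, 8.16% and 3.56% before thinning). No other kainate subunit had enough counts for a test in any type.

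**Figure D3:**
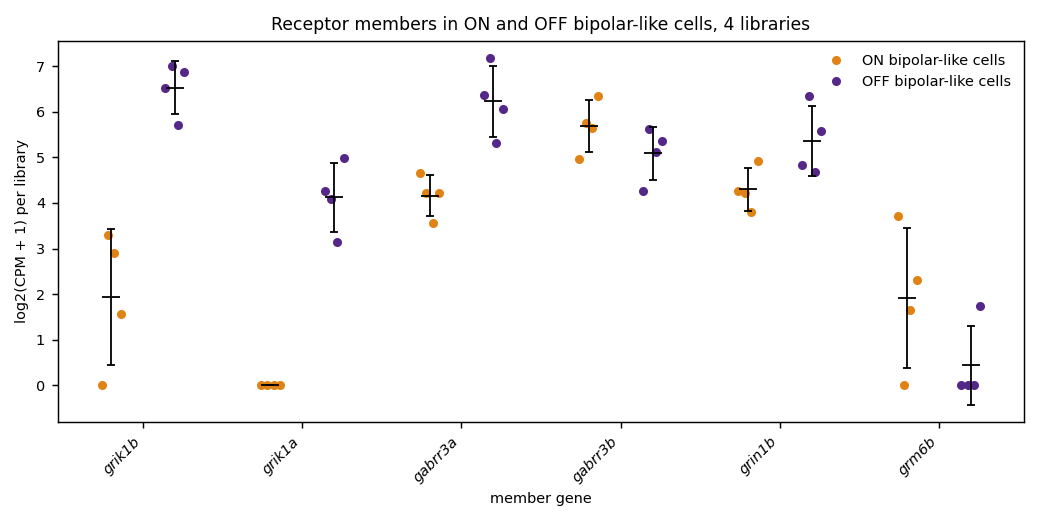
CPM of 6 members in ON bipolar-like cells (left of each pair) and OFF bipolar-like cells (right), on a log2(CPM + 1) axis. Points are the 4 libraries with at least 10 cells of both classes and bars the mean ± SD of the plotted values: grik1b, grik1a and gabrr3a are low in ON and high in OFF cells, whereas gabrr3b overlaps.

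Among metabotropic glutamate receptors the best known in the retina is mGluR6, the receptor through which ON bipolar cells sense photoreceptor glutamate, encoded in zebrafish by grm6a and grm6b. At 48 hpf few UMIs of either gene were counted in ON bipolar-like cells. grm6a had 22 UMIs in all retinal cells, 1 of them in ON bipolar-like cells. grm6b had 5 UMIs in ON bipolar-like cells, found at 2000 UMIs a cell in 0.697% of them (0.0845 to 2.49%), against 1.44% of non-retinal cells (0.530 to 3.11%). That non-retinal share was uneven over the types pooled in it, so it cannot serve as a level without the gene. The median depth of ON bipolar-like cells was the lowest of the retinal types at 3290 UMIs.

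grm6b was instead highest in cholinergic amacrine-like cells. It had 58.7, 62.3 and 258 CPM (4, 16 and 63 UMIs) in those of mCherry-enriched replicate 3 and eGFP-enriched replicates 1 and 3, against 3.41, 4.76 and 3.51 CPM in the other retinal cells (log2 fold change 4.66, SE 0.43, adjusted p = 4e-25). The groups did not overlap, and eGFP-enriched replicate 3 was about 4 times the other 2. Against other amacrine-like cells of the same libraries, with 0, 6.32 and 0.519 CPM, the log2 fold change was 5.00 (SE 0.49, adjusted p = 6.1e-22), and here 2 of 23 members were higher (background 2.81%; 1 without any one of the 3 libraries) and 0 lower (background 3.52%; 0 by DESeq2). At 2000 UMIs a cell 23.4% of the 77 cholinergic amacrine-like cells held grm6b (14.5 to 34.4%), against 1.88% of RGC-like cells (0.907 to 3.44%), 0.361% of other amacrine-like cells and the 1.44% of non-retinal cells. Without thinning these shares were 53.2%, 9.74%, 2.32% and 8.31%. Within the non-retinal cells the unthinned share was uneven. Only 1 of the 77 surface epithelium-like cells held grm6b, and no UMI of it was counted in mesenchyme-like cells. The other non-retinal cells with grm6b were therefore iridophore-, cartilage-, leukocyte- or pigment cell-like, and their shares by type were not counted.

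The gates of these cells share a gene with the ON class, since isl1 stands in both marker lists, so the other bipolar genes were checked in them. The 8 general bipolar markers summed to 1761 CPM in cholinergic amacrine-like cells, against 1692 CPM in other amacrine-like cells and 13998 CPM in ON bipolar-like cells. The amacrine markers summed to 4686 CPM, against 6347 CPM in other amacrine-like cells and 645 CPM in ON bipolar-like cells. The 5 ON bipolar markers, isl1 among them, summed to 3721 CPM in cholinergic amacrine-like cells, against 766 CPM in other amacrine-like, 12590 CPM in ON bipolar-like and 4402 CPM in unclassified bipolar-like cells, and the part of isl1 in this sum was not tested. megf10, a gene of starburst amacrine cells kept out of the gate, had 60.4 CPM in them and at most 3.55 CPM elsewhere, while the choline transporter slc5a7a reached only 2.74 CPM. Of the 77 cells, 14 lay within 0.1 of a cut of the gate.

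Outside the mGluR6 genes, grm2b, grm8b and grm4 differed by type. grm2b, a member of the group that inhibits adenylyl cyclase, had 13.9, 40.9, 22.3 and 102 CPM in Müller glia-like cells of mCherry-enriched replicates 1 and 3 and eGFP-enriched replicates 1 and 3, against 1.14, 1.16, 1.82 and 0.981 CPM in the other retinal cells (log2 fold change 4.68, SE 0.43, adjusted p = 3.8e-11). It was found at 2000 UMIs in 6.22% of Müller glia-like cells (3.53 to 10.1%) and 0.240% of non-retinal cells (14.3% and 1.66% before thinning), and in no bipolar-like cell at any depth. grm8b, a presynaptic receptor, had 6.15, 17.8, 3.95 and 6.22 CPM in amacrine-like cells, against 0, 0.842, 0.685 and 0.552 CPM in the others (log2 fold change 3.46, SE 0.56, adjusted p = 0.018). This call was lost without mCherry-enriched replicate 3 (adjusted p = 0.12), although the remaining 3 libraries still did not overlap. grm4 was higher in RGC-like cells (0 to 27.7 CPM, median 13.7, against 0 to 2.02 CPM, median 1.1, in the others; log2 fold change 3.97, SE 0.51, adjusted p = 3e-05), and so were grm1a (log2 fold change 2.87) and grm6b (1.52).

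**Figure D4:**
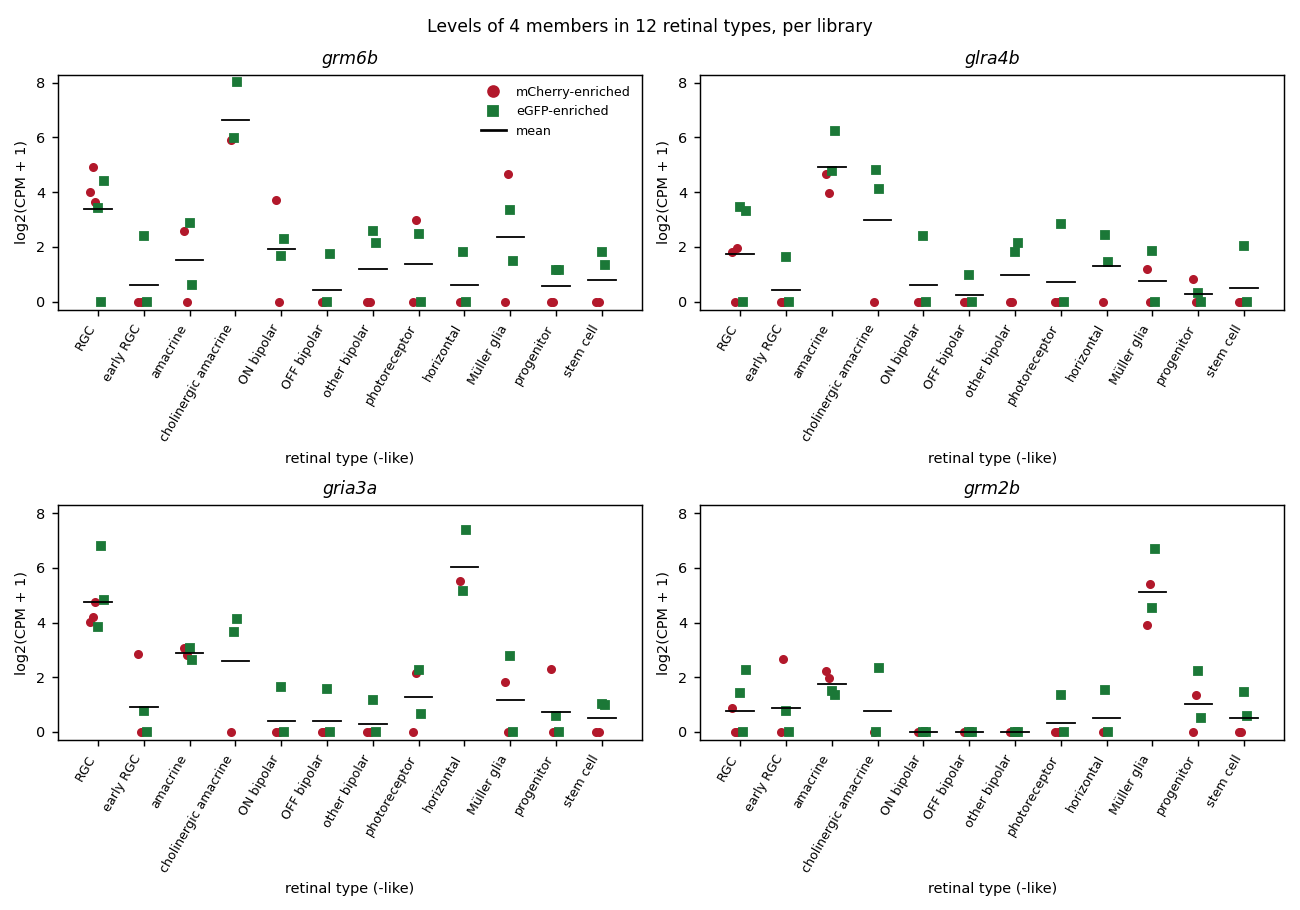
CPM of grm6b, glra4b, gria3a and grm2b in 12 retinal types, on a log2(CPM + 1) axis, with 1 point per library of at least 10 cells of the type (circles mCherry-enriched, squares eGFP-enriched) and a line at the mean of the plotted values. The highest mean CPM are grm6b in cholinergic amacrine-like cells (126 CPM), glra4b in amacrine-like cells (35.2 CPM), gria3a in horizontal-like cells (82.4 CPM) and grm2b in Müller glia-like cells (44.7 CPM), with points of cholinergic amacrine-like cells overlapping for glra4b and of RGC-like cells for gria3a.

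GABA-A receptors are chloride channels, and those built of rho subunits, long known from bipolar cell terminals, close more slowly. The 2 zebrafish rho3 copies were both high in bipolar-like cells, and 1 of them differed between the classes. gabrr3a had 82.2, 144, 38.5 and 65.9 CPM in OFF bipolar-like cells, against 3.87, 1.13, 3.60 and 2.26 CPM in the other retinal cells (log2 fold change 4.26, SE 0.35, adjusted p = 2.3e-30). In ON bipolar-like cells it had 24.1, 17.8, 10.7 and 17.7 CPM, against 82.2, 144, 38.5 and 65.9 CPM in OFF bipolar-like cells (log2 fold change -2.02, SE 0.39, adjusted p = 2.2e-05), and still more than the other retinal cells (log2 fold change 1.70, SE 0.50, adjusted p = 0.0043), a call lost without eGFP-enriched replicate 3 (adjusted p = 0.12).

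gabrr3b leaned the other way without passing the direct test. It had 30.1, 53.3, 49.3 and 80.6 CPM in ON bipolar-like cells, against 5.43, 1.92, 5.47 and 2.69 CPM in the other retinal cells (log2 fold change 3.62, SE 0.36, adjusted p = 8.9e-22), and 18.3, 47.9, 33.6 and 40.0 CPM in OFF bipolar-like cells, against 5.88, 3.02, 5.14 and 4.61 CPM in the others (log2 fold change 2.73, SE 0.38, adjusted p = 9.2e-11). ON was above OFF in each of the 4 libraries, yet the difference had a log2 fold change of 0.67 with an SE of 0.33 (adjusted p = 0.43), and the ranges overlapped. At 2000 UMIs a cell gabrr3b was found in 11.8% of ON (8.35 to 16.2%) and 4.27% of OFF bipolar-like cells (2.23 to 7.34%), and gabrr3a in 3.14% of ON (1.44 to 5.87%) and 11.4% of OFF bipolar-like cells (7.92 to 15.7%), with 0.240% of non-retinal cells for each gene. Before thinning the shares were 16.6% and 14.5% for gabrr3b and 5.19% and 21.3% for gabrr3a.

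The bipolar-like cells of neither class were higher in gabrr3b (log2 fold change 2.52), at 26.8, 21.7, 32.2 and 38.2 CPM against 5.31, 3.75, 5.42 and 5.04 CPM in the other retinal cells, and in gabrr3a (log2 fold change 2.32), at 26.8, 0, 14.9 and 41.6 CPM against 4.46, 4.50, 4.66 and 3.52 CPM. The rho3 genes were thus higher in all 3 bipolar-like groups.

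RGC-like cells carried a different set. gabrb4 (log2 fold change 3.0), gabrp (2.3) and gabrz (1.56) were higher, and the rho subunits gabrr3a (-1.83, SE 0.55, adjusted p = 0.018) and gabrr3b (-1.62, adjusted p = 0.031) were lower. gabra5 was separated from the amacrine-like cells by a log2 fold change of 4.48 (SE 0.91, adjusted p = 0.00063), with 6.74, 2.85, 2.39 and 10.7 CPM in RGC-like cells, against 0, 0, 0.263 and 0 CPM in amacrine-like cells. Against the other retinal cells gabra5 was not called higher in any type, and it had 0 to 6.43 CPM in ON and 0 to 7.06 CPM in OFF bipolar-like cells. The rho subunit called higher in amacrine-like cells was gabrr2a, with 18.4, 5.94, 6.32 and 8.3 CPM there, against 0.954, 1.26, 2.15 and 2.39 CPM in the other retinal cells (log2 fold change 2.24, SE 0.46, adjusted p = 0.034). This call was lost without mCherry-enriched replicate 1 (adjusted p = 0.051), without eGFP-enriched replicate 1 (0.055) or without mCherry-enriched replicate 3 (0.13). Single types among the others overlapped with this range, since gabrr2a had 0 to 13.8 CPM in ON bipolar-like and 0 to 13.8 CPM in horizontal-like cells. In eGFP-enriched replicate 3 both were above the amacrine-like cells. The remaining rho genes, gabrr1 and gabrr2b, had too few counts for a test. In stem cell-like cells gabrb1 was the only member higher, with 0, 7.30, 3.05 and 2.01 CPM, against 0.718, 0.435, 0.873 and 0.741 CPM in the others (log2 fold change 2.0, SE 0.60, adjusted p = 0.014). It was higher in 3 of the 4 libraries, and no member was called higher in these cells without eGFP-enriched replicate 1, without mCherry-enriched replicate 3, within either sort alone, with thinned cells or under edgeR's default filter.

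Glycine receptors combine alpha subunits with a beta subunit that ties them to the synaptic scaffold. The alpha subunit gene glra4b was concentrated in amacrine-like cells, at 24.6, 14.9, 26.6 and 74.7 CPM in mCherry-enriched replicates 1 and 3 and eGFP-enriched replicates 1 and 3, against 4.00, 0.421, 4.43 and 1.84 CPM in the other retinal cells (log2 fold change 3.58, SE 0.51, adjusted p = 0.013), a call lost without mCherry-enriched replicate 3 (adjusted p = 0.10). At 2000 UMIs it was found in 7.04% of amacrine-like cells (5.05 to 9.50%), 1.69% of RGC-like cells and 0.240% of non-retinal cells (19.6%, 6.07% and 0.713% before thinning). In cholinergic amacrine-like cells it had 0 to 27.2 CPM in 3 libraries and did not pass (adjusted p = 0.49). RGC-like cells were below amacrine-like cells, at 2.53, 2.85, 10.0 and 8.82 CPM against 24.6, 14.9, 26.6 and 74.7 CPM (log2 fold change -2.36, SE 0.29, adjusted p = 4.2e-07). It was the member with the largest fall in progenitor-like cells among those with counts there (log2 fold change -5.07, SE 0.58, adjusted p = 5.4e-05).

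The RGC-like cells were higher in glra3 (log2 fold change 2.31), glra1 (1.06) and the beta subunit gene glrbb. Directly against amacrine-like cells only glrbb among these was called higher. Mean glra1 was 11.5 CPM in RGC-like, 10.8 CPM in early RGC-like and 9.37 CPM in amacrine-like cells. Mean glra3 was 4.17 CPM in RGC-like and 3.01 CPM in amacrine-like cells. glrbb had 16.0 to 55.5 CPM in RGC-like cells (median 29.8), against 2.12 to 9.24 CPM (median 5.41) in the others, without overlap (log2 fold change 2.3, SE 0.38, adjusted p = 0.00028). OFF bipolar-like cells were also higher in it by a log2 fold change of 1.41 (adjusted p = 0.0015), although it was not counted in the 16 cells of mCherry-enriched replicate 3. Of the 7 glycine subunits 5 were tested, and glra4b and glrbb alone had more than 400 UMIs.

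Neuronal nicotinic receptors were a feature of the RGC-like cells. In rodents the alpha6 and beta3 subunits are found together in ganglion cell axons, and the zebrafish genes for both were high here. chrna6 had 44.6, 0 and 28.5 CPM in mCherry-enriched and 32.8, 55.4 and 42.8 CPM in eGFP-enriched replicates 1, 2 and 3, against at most 2.60 CPM in the other retinal cells of any library (log2 fold change 4.88, SE 0.48, adjusted p = 3.3e-06). The 0 was in mCherry-enriched replicate 2, which held 24 RGC-like cells. chrnb3a had 0 to 64.3 CPM in RGC-like cells (median 32.7), against 0 to 6.37 CPM (median 4.39) in the others (log2 fold change 3.01, SE 0.32, adjusted p = 6.7e-06), with the 0 in the 10 cells of eGFP-enriched replicate 2. Single types among the others overlapped with this range. chrnb3a had 17.8 to 21.6 CPM in ON bipolar-like, 3.95 to 18.3 CPM in OFF bipolar-like and 12.3 to 19.5 CPM in cholinergic amacrine-like cells. chrnb2 (log2 fold change 3.08), chrnb5b (1.97) and chrna5 (1.65) completed the 5 of 5 tested neuronal nicotinic subunits that were higher.

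Against amacrine-like cells, chrna6 was at 44.6, 28.5, 32.8 and 42.8 CPM in RGC-like cells and at 1.23, 0, 1.58 and 0.519 CPM in amacrine-like cells (log2 fold change 4.82, SE 0.36, adjusted p = 7e-11). Its share at 2000 UMIs was 11.5% of RGC-like cells (8.90 to 14.5%), 1.16% of early RGC-like cells (0.140 to 4.11%) and 1.2% of non-retinal cells (0.390 to 2.78%). Before thinning these shares were 23.2%, 2.29% and 3.09%. The intervals of early RGC-like and non-retinal cells overlapped. Within the non-retinal cells chrna6 was uneven, so their pooled share cannot serve as a level without the gene. Before thinning only 1 of 187 mesenchyme-like cells held chrna6, and no UMI of it was counted in surface epithelium-like cells. The other non-retinal cells with chrna6 were therefore iridophore-, cartilage-, leukocyte- or pigment cell-like. In OFF bipolar-like cells chrna2a was called higher on 9 UMIs, at 9.14, 0, 5.93 and 4.71 CPM (1, 0, 6 and 2 UMIs). The other retinal cells had 0.673, 0, 0.891 and 0.323 CPM (log2 fold change 3.02, SE 0.66, adjusted p = 0.00018). The muscle nicotinic subunits had 26 UMIs in all retinal cells and were tested in none.

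Genes that place or modify these receptors were read from 4 lists. Of 29 anchoring and trafficking genes found, 14 of the 17 tested were higher in RGC-like cells, against 16.0% of all genes, and 0 lower. nlgn1, an adhesion molecule of excitatory synapses, had a log2 fold change of 3.52 (28.9 ± 17.2 CPM in RGC-like cells and a mean of 1.85 CPM in the others, n = 6), lhfpl4a, which is needed at GABAergic synapses in mouse, 2.48, and gphnb, for the glycine and GABA-A scaffold gephyrin, 2.39 (67.4 ± 16.2 CPM against a mean of 12.7 CPM). Of auxiliary subunits of glutamate receptors 6 of 7 were higher in RGC-like cells and 0 lower, among them the AMPA receptor partners cnih3 (log2 fold change 3.90), cacng2a (2.51) and cacng8b (2.06). In amacrine-like cells the scaffold gene dlg2 (2.27) and cacng3b (1.77) were higher.

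From the list of genes acting downstream of mGluR6, gnb3a and gng13b were left out because they are markers of the ON bipolar gate. The counts of this list, also those of ON bipolar-like cells, do not include them. In the cholinergic amacrine-like cells the list had 3 of 7 tested higher and 0 lower, against 2.60% of all genes. The same list had 7 of 7 higher in RGC-like cells (background 16.0%), and 3 of 9 higher and 1 lower in ON bipolar-like cells (background 7.91% higher, 16.5% lower). rgs11, the G protein deactivator that works with mGluR6 in mammalian ON bipolar cells, had 142 ± 102 CPM in them and a mean of 3.69 CPM in the other retinal cells (log2 fold change 4.81, SE 0.42, adjusted p = 1.7e-28, n = 3), and the difference from other amacrine-like cells was 5.26 on the log2 scale. gnao1b, for the G protein alpha subunit, was higher by 1.41 in them and by 2.32 in ON bipolar-like cells (237 ± 120 CPM in ON bipolar-like cells and a mean of 40.5 CPM in the others), and ON bipolar-like cells exceeded OFF bipolar-like cells by 2.79. trpm1a, for the channel at the end of the cascade, was higher in ON bipolar-like cells (log2 fold change 3.27, 10.7 ± 6.83 CPM against a mean of 0.929 CPM), in bipolar-like cells of neither class (3.18) and in OFF bipolar-like cells (2.10, in 2 of 4 libraries), and did not have the counts for a test in cholinergic amacrine-like cells. The lists of OFF bipolar-like cells held shank2a (4.08) and nptxra (1.98) as their highest. Of the 6 chloride transporters only 3 to 5 were tested in a type. By edgeR 0 were higher in any type (background 2.22 to 19.3% by type), a count that says little with so few tested. Lower calls were slc12a7a, at 0 UMIs in ON bipolar-like cells (1 of 4 tested, background 16.5%), and slc12a2 in bipolar-like cells of neither class (1 of 4 tested, background 8.08%, log2 fold change -1.48, adjusted p = 0.028).

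Between the sorts no member differed past the threshold. Summed over all retinal cells, 0 of 53 members and 0 of 14737 genes were called between mCherry-enriched and eGFP-enriched libraries by edgeR (background 0.0%; 0 by DESeq2), with 3 members and 417 genes at an unadjusted p of at most 0.05. The 3 were gria1a, grin2aa and glra4b. gria1a, with the smallest p among members, had 1.49, 0 and 1.48 CPM in mCherry-enriched replicates 1, 2 and 3, against 5.80, 0 and 4.46 CPM in eGFP-enriched replicates (log2 fold change -1.84, SE 0.55, unadjusted p = 0.0041 from edgeR's fit over all genes). Within amacrine-like cells, cholinergic ones included, 0 of 25 members were called (background 0.0%) and 1 had an unadjusted p of at most 0.05, again gria1a (log2 fold change -2.67, SE 0.83). Within RGC-like cells 0 of 39 were called (background 0.0%) and 2 had such a p, glra4b and grin2aa. DESeq2 likewise called 0 in both. When the fit was blocked on replicate number, the genes called were 83 over all retinal, 43 in amacrine-like and 16 in RGC-like cells, with 0 members among them. For the most counted members reported here the SE leaves room for differences: grin2ab had 34.3 ± 15.8 CPM in mCherry-enriched and 23.8 ± 11.1 CPM in eGFP-enriched libraries (log2 fold change 0.16, SE 0.29), and grin1a 24.8 ± 5.22 CPM in mCherry-enriched and 24.9 ± 9.18 CPM in eGFP-enriched libraries (log2 fold change -0.23, SE 0.24; SD, n = 3 each). The sorts differ in the share of each type they hold, and these sums over all retinal cells were not adjusted for it.

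**Figure D5:**
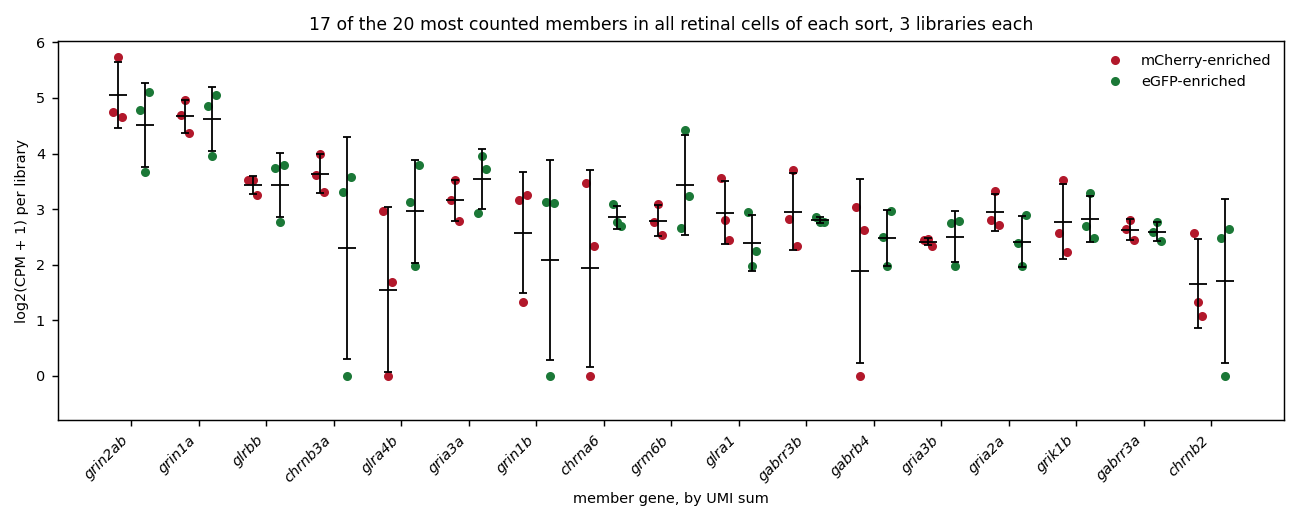
CPM of 17 of the 20 most counted members summed over all retinal cells of a library, on a log2(CPM + 1) axis, in mCherry-enriched (left of each pair) and eGFP-enriched (right) libraries, 3 of each. Points are libraries and bars the mean ± SD of the plotted values, and the ranges of the sorts overlap for every gene shown.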

How the data were processed

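The 6 libraries of FACS-enriched eye cells (3 mCherry-enriched, 3 eGFP-enriched) were analysed. The deposited values are whole UMI counts for every barcode, unfiltered and not normalised, which the authors made, per the methods, with Cell Ranger 6.1.2 against GRCz11 extended by both reporter sequences. The header of the count files names another Cell Ranger version. Total UMIs per library ran from 14307132 to 86803928. Intervals cover counting error only.

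The members, gene lists and markers were chosen with earlier results of these data known. Barcodes with at least 1000 genes and at most 10% mitochondrial UMIs were kept. A cell took the type with the highest mean marker z-score if it was at least 0.5, exceeded the next by 0.25 and rested on 3 detected markers; sub-gates split cholinergic amacrine, ON and OFF bipolar cells. UMIs were summed per library and type (at least 10 cells) and tested with edgeR 4.0.16 (R 4.3.3; quasi-likelihood, TMM, library as covariate for types, no covariate for sorts), adjusting over all genes tested at 0.05, gate markers left out. The count filter was lowered to 1 count and 20 in total after the default of 10 had left few members. Nothing states that libraries of a sort came from separate clutches, so p-values measure the spread between these libraries. Shares of cells used cells thinned to 2000 UMIs, which left out 41 retinal cells. Genes were named by a rule of size: up to 6 of the largest and 3 of the smallest fold changes per type with 1 direction in every library, 4 each way per direct comparison, members known from background, the 20 most counted and up to 3 of each pathway list per type; early RGC calls, gene groups given by their counts and the genes of the sort comparison at an unadjusted p of at most 0.05 were named after their values were seen. Alternatives were DESeq2 1.42.0, RLE factors, no filter, the default filter, at least 500 genes and 800 UMIs, at most 5% mitochondrial UMIs, a stricter gate, thinned cells, at least 20 cells, leaving out libraries, 1 sort only, a replicate block and equal weights of types. The fits were tested on simulated data. Some members are counted in all totals but not reported here by name, and figures leave them out. Python 3.11.15, numpy 2.4.6, scipy 1.17.1, pandas 2.3.3 and matplotlib 3.10.9 were used.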

Additional observations from a re-analysis of the deposited data

Results flagged for a closer look

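In amacrine-like cells grm8b stood apart in 1 library: mCherry-enriched replicate 3 had 17.8 CPM, against 3.95 to 6.22 CPM in the other 3. About 1 in 20 groups shows such a gap by chance, and 1 UMI was worth 2.97 CPM there.

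Receptor subunits also appeared outside the retina, in cells the comparisons did not use. In the 8 muscle-like cells, 1 from eGFP-enriched replicate 1 and 7 from replicate 3, the muscle nicotinic subunits chrna1, chrnd, chrne and chrng had 126, 71.3, 32.9 and 27.4 CPM, above the level that a count of 0 allows, and chrna1 was found in 6 of the 8. chrng had 0 UMIs in retinal cells. In the 77 surface epithelium-like cells chrna9 had 11.6 CPM, and all 19 of its UMIs came from 1 cell.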

How the results depend on the processing

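The 73 named pairs of member and comparison had 973 values under the alternatives in which the member was tested and had an adjusted p. Of these values 794 kept the call, 179 kept the direction without passing the threshold and 0 reversed. Settings that left a member untested are not among them. In this sense 26 pairs passed under every alternative, some on few, such as grik1a between ON and OFF bipolar-like cells with 7. The losses were most frequent with 1 sort alone (31 in eGFP-enriched, 30 in mCherry-enriched libraries). Which step caused each loss was not tested. Fewer libraries or a higher filter leave fewer members tested, but an untested member is not counted among these losses.

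Members higher moved as follows. RGC-like: 9 with the default filter, 15 thinned, 14 in mCherry-enriched libraries only. Amacrine-like: 3 with the default filter, 0 in either sort only. ON bipolar-like: 3 thinned and 3 in mCherry-enriched libraries only. OFF bipolar-like: 2 in mCherry-enriched libraries only. Unclassified bipolar-like: 5 with 500 genes and 800 UMIs, 8 with the stricter gate, 0 in mCherry-enriched libraries only. PR-like: 1 without filter and 1 with at least 20 cells. Horizontal-like: 2 without filter. Müller glia-like: 0 thinned. Progenitor-like: 1 without filter and 1 with 500 genes. Stem cell-like: 2 without filter, 0 with the default filter, thinned or in either sort only. Cholinergic over other amacrine-like: 1 with DESeq2, the default filter, thinned, at least 20 cells or eGFP-enriched libraries only. RGC-like over amacrine-like: 10 thinned, 7 in mCherry-enriched libraries only. The 114 lower calls over the 12 types became 68 with DESeq2, 57 thinned, 50 with the default filter and 50 in eGFP-enriched libraries only.

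Leaving out 1 library, members higher ranged over 19 to 29 (RGC-like), 14 to 18 (RGC-like over amacrine-like), 0 to 5 (amacrine-like), 1 to 3 (cholinergic), 3 to 5 (ON), 8 to 10 (OFF), 3 to 3 (unclassified bipolar), 0 to 1 (PR-like and stem cell-like) and 1 to 1 (horizontal, Müller glia, cholinergic over other amacrine), and stayed 0 to 0 in early RGC-like, progenitor-like and ON over OFF cells. Lower calls ranged over 57 to 98. Genes called between sorts ranged over 0 to 21 (all retinal), 0 to 52 (amacrine-like) and 0 to 42 (RGC-like), with 0 to 0 members.

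With the replicate number as a block, genes called between sorts were 83 over all retinal, 43 in amacrine-like and 16 in RGC-like cells, with 0 members; without a filter they were 21, 6 and 20, and 1 over all retinal cells with 500 genes. The study describes 3 rounds of sorting with 1 sample of each sort a round, but not that the number is the round: correlations of same-numbered libraries' deviations were 0.164, 0.0764 and 0.0833, and each of the 6 libraries correlated best with its own number. The stricter gate left too few cholinergic cells for a fit. Depth limits the 38 untested members and the bipolar-like cells, the shallowest.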
